A study of Mus musculus with 16 samples.

Results

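The Schwann cells of the injured mouse spinal cord are described here. They are Cluster 15 of the deposited cell annotation, whose name rests on marker genes, and were taken by that cluster number, which gave 207 of 18203 cells. The tissue was spinal cord at the site of a cut through the dorsal columns of the neck, and each library of single-cell RNA stands for 1 mouse. The study asked how loss of the Wnt receptor Ryk in astrocytes changes scarring and wound healing. There were 16 mice aged 8 to 10 weeks, with 2 per condition. Control mice (WT below) had the genotype Ryk+/+,GFAPcreERT2 and knockout mice (cKO below) had Rykfl/fl,GFAPcreERT2, and per the study's methods the mice received tamoxifen, so both genotypes shared the Cre transgene and the drug. Mice of each genotype were uninjured (sham in the sample labels) or were taken 1 d, 7 d or 14 d after injury. Cre was driven by a GFAP promoter, which is active in astrocytes and can be active in other GFAP-expressing glia, and whether Ryk was deleted in Schwann cells was not tested. Tissue was digested with pronase in the presence of the transcription blocker actinomycin D, and dead cells were removed, in all groups.

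Schwann cells are the glia of peripheral nerves. Myelinating Schwann cells wrap a single axon segment in a myelin sheath and rest on a basal lamina, whereas non-myelinating (Remak) cells hold several thin axons and make no myelin. The spinal cord itself is myelinated by oligodendrocytes, and Schwann cells normally lie in the nerve roots, from which they can enter the cord after injury. In cut nerves they take on a repair state, with loss of myelin proteins and release of growth factors.

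Several libraries stood apart before any comparison. Replicate 2 of cKO at 7 d gave 103 of the 207 Schwann cells (49.8%) and 69.0% of their 607933 unique molecular identifiers (UMIs, single captured RNA molecules), so pooled values lean on that mouse. Replicate 2 of WT at 14 d had 7 cells in the cluster, of which 1 had a UMI of Prx, so this marker goes against the label there. The deepest of these cells held 6 UMIs of Cdh19, another Schwann cell marker. Whether the 7 cells are Schwann cells was not settled. Replicate 2 of WT at 1 d had 1 cell in all and was left out. In 3 of the 15 other mice no Schwann cell was found. The names of the cells in the matrix give another condition than the sample titles for 6 of 16 mice, each a replicate 2, among them both uninjured mice that had Schwann cells. The titles were followed here, and tests were repeated with the other conditions.

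Sequencing depth differed widely among the Schwann cells. The median Schwann cell had 2571 UMIs and 1417 detected genes, against 1164 UMIs in the 17996 other cells and 1066 in the 2660 oligodendrocytes (Clusters 4 and 8). Schwann cells of replicate 1 of WT at 1 d, cKO at 1 d and WT at 7 d had medians of 333, 292 and 289 UMIs, and those of replicate 2 of cKO at 7 d had 3661. The 207 cells ranged from 243 to 34043 UMIs. Shares of cells with a UMI of a gene are given at these unlike depths, except where cells were thinned. Alone they do not measure a difference in level. In the 6 Schwann cells of cKO 1 d replicate 1 a single UMI was worth 532 CPM (the standard scale of the UMIs of a gene relative to the UMIs of all genes).

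Ryk, the gene deleted in the knockout, was counted first in every mouse. Over all cells it ranged from 45.3 to 80.0 CPM in the 7 WT mice and from 45.0 to 82.4 CPM in the 8 cKO mice, and these ranges overlap. The sources used here do not name the deleted exon and the libraries read the 3′ end, which may lie outside the deleted part, so the counts check no genotype. Schwann cells had 88 UMIs of Ryk, at 145 CPM and in 28.5% of the cells (22.5 to 35.2), against 66.3 CPM and 13.0% in the other cells. Of these UMIs 66 came from cKO 7 d replicate 2, and without it the level was 117 CPM and the share of cells 16.3%. In the 4 WT mice with at least 5 Schwann cells Ryk was at 161, 244, 47.8 and 71.6 CPM, each from 1 or 2 UMIs. In the 6 cKO mice it ranged from 0 through a median of 138 to 202 CPM, with 0 UMIs in both mice at 1 d, and the groups overlap.

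The cells carried structural genes of peripheral myelin. Pmp22, a membrane protein of compact myelin (chromosome 11 of GRCm38, 63128982 to 63159547), was at 5578 CPM, with a UMI in 88.4% of the Schwann cells (95% exact binomial interval 83.2 to 92.4, counting error only). A UMI of it was found in 14.7% of the other cells, which had the lower depth given above.

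Prx encodes periaxin, which ties the sheath to the basal lamina through the dystroglycan complex (chromosome 7, 27499324 to 27520214). It was at 1474 CPM and was found in 72.9% of the Schwann cells (66.4 to 78.9) and 0.839% of the others. Ncmap, a protein of non-compact myelin (chromosome 4, 135369576 to 135398227), was at 880.03 CPM and in 61.4% of the cells (54.4 to 68.0), against 0.867% of the others. With each cell thinned to 500 UMIs, which left 186 Schwann cells and 15056 others, the shares were 72.3% and 4.37% for Pmp22 and 45.4% and 0.200% for Prx. Without cKO 7 d replicate 2 the shares in the remaining 104 Schwann cells were 81.7% for Pmp22, 59.6% for Prx and 49.0% for Ncmap. Without WT 14 d replicate 2 the share for Pmp22 was 91.0% and that for Ncmap 63.5%.

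These 3 markers varied among the 10 mice with at least 5 Schwann cells. The summed Pmp22 level ranged from 215 to 15180 CPM, with a median of 6355 in the 8 injured mice among them. WT 14 d replicate 2 was lowest for Pmp22, Prx and Ncmap. Of the 10 Schwann cell markers used, 10 had a UMI in the cluster and 9 were in at least 25% of the cells. Pmp2, a fatty acid binding protein of peripheral myelin, was the exception, with 6 UMIs in all.

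**Figure D1:**
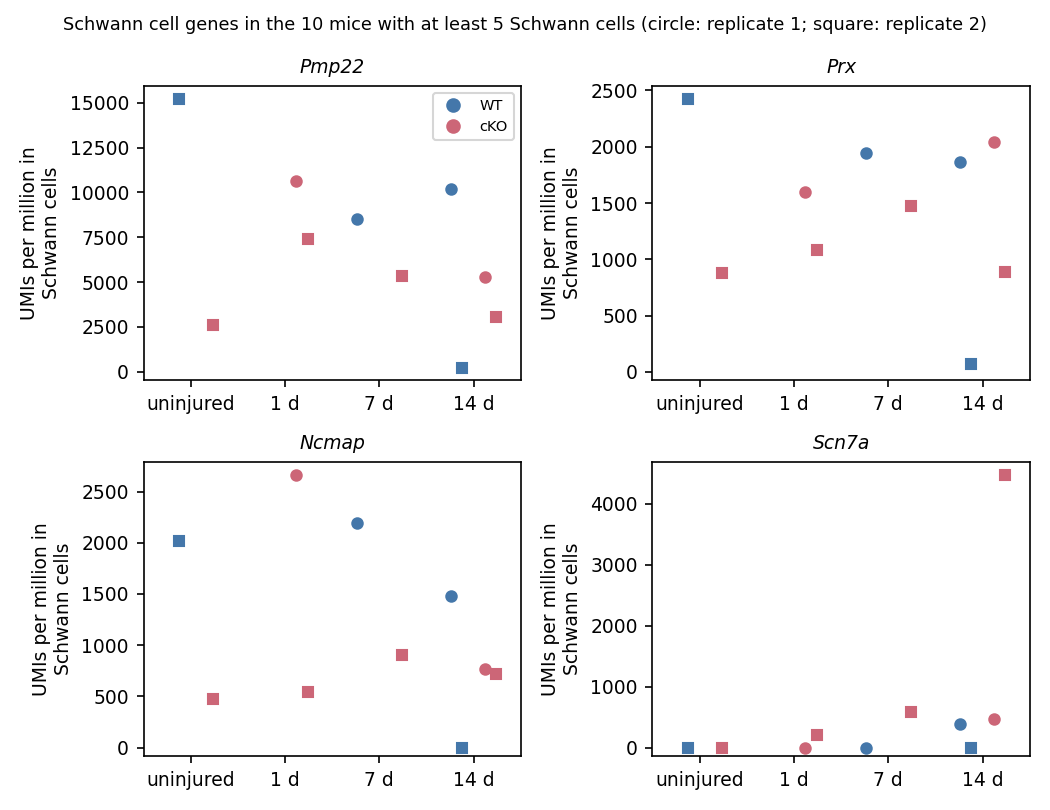
Level of Pmp22, Prx, Ncmap and Scn7a in the Schwann cells of each mouse with at least 5 of them, in CPM on the vertical axis (linear, from 0) against time after injury. Each point is 1 mouse, blue for WT and red for cKO, circles for replicate 1 and squares for replicate 2; WT 14 d replicate 2 has the lowest Pmp22, at 215, and cKO 14 d replicate 2 the highest Scn7a, at 4467.

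Markers of the cluster were also found in cells outside it. Pmp22 was found in 5.09% to 23.9% of the other cells of a mouse. A UMI of Prx was found in 3.17% of the 1418 other cells of cKO 7 d replicate 2 (median 3493.5 UMIs), the library with the most Schwann cells. In the other 14 mice the share was between 0.112% and 1.92%, and the upper value is from cKO uninjured replicate 1, which had no Schwann cells. For Ncmap that mouse was the highest, at 2.88%, against 2.12% in cKO 7 d replicate 2. In the cluster Prx was found in 89 of the 103 Schwann cells of cKO 7 d replicate 2 (median 3661 UMIs) and in 1 of the 7 of WT 14 d replicate 2.

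Beyond the 3 markers, the genes that stood highest over the rest of the series included many proteins of the sheath and its contacts. Ranked by the fold of summed CPM over all other cells, among the 1401 genes with a UMI in at least 25% of Schwann cells, the first 20 included 8 genes of the peripheral myelin list. This is a description with no test, since the authors formed the cluster from the most variable genes of these same cells. Cldn19, a claudin of the tight junctions between myelin layers, was at 426 CPM against 0.569 in the other cells. Drp2, which binds periaxin, was at 1278 CPM against 15.4.

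Genes for signals to neighbouring cells were also among the 20. Gldn encodes gliomedin, a ligand that gathers sodium channels at the node of Ranvier, and was at 475 CPM against 1.74. Dhh encodes Desert hedgehog, a signal from Schwann cells to the nerve sheath, and was at 200.7 CPM against 0.607. Sostdc1, a secreted antagonist of BMP and Wnt signals that is also among the satellite glia markers counted below, was at 235 CPM against 0.228, and Chrdl1, a secreted BMP antagonist, was at 163 CPM against 1.99. Also among them were Ddn, Fxyd3, Slc36a2 (an amino acid transporter), Fam178b, Sema3b (a secreted semaphorin), Plekha4, Mlip, A330069K06Rik, Col28a1 (a collagen chain) and Vgll3.

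The cells shared part of the myelin programme with oligodendrocytes and lacked most of the central part. Of 12 central myelin genes, 0 were above the level in oligodendrocytes, and their summed level was 887 CPM against 8882. Mog, a protein of the outer face of central myelin, was at 13.2 CPM (8 UMIs) against 954, and Mobp, the most abundant of the list, was at 428 CPM against 1956. Cldn11, the claudin of central myelin, had 17 UMIs in the Schwann cells, at 28.0 CPM against 1356 in oligodendrocytes. Olig2, a transcription factor of the oligodendrocyte lineage, had 3 UMIs.

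Genes of both kinds of myelin were high in both cell types. Mbp, the basic protein that compacts the sheath, was at 7262 CPM in Schwann cells and 7083 in oligodendrocytes. Cd9, a tetraspanin, was at 2180 CPM against 229. Over the 11 genes of that list the summed levels were 16188 and 17936 CPM, and 4 genes were higher in Schwann cells.

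Set against oligodendrocytes of the same 10 mice, 92 of the 2577 genes at 100 CPM or more in either type were higher in the Schwann cells of every mouse and 287 were lower in every mouse. This again is a description, because the clusters were formed on the same cells. The counts of higher and lower genes cannot be set against each other, because low depth bears on them unequally. To count as higher, a gene needed a Schwann cell UMI in every mouse. In cKO 1 d replicate 1 the Schwann cells held only 1881 UMIs. A gene with no UMI in them could still count as lower. The pooled levels that follow are over the cells of all mice, and ranges are over the 10 mice. Among the 10 with the largest excess were Cldn19, Slc36a2, Prx, Ogn, Drp2, Adamts5, Arhgap19, Il16 and Cfap100. Ogn, which encodes the matrix proteoglycan osteoglycin, was at 1811 CPM (71.6 to 3748 over the 10 mice) against 3.35 in oligodendrocytes. Adamts5, a protease of matrix proteoglycans, was at 446 CPM against 2.65. In the other direction Ptgds, which makes prostaglandin D, was at 70.7 CPM in Schwann cells and 5239 in oligodendrocytes. Gm21984, Nkx6-2, Serpinb1a, Slain1, Adamts4, Tmem132d, Il33, S1pr5 and D16Ertd472e had 1 to 3 UMIs in the Schwann cells and 120 to 539 CPM in oligodendrocytes.

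**Figure D2:**
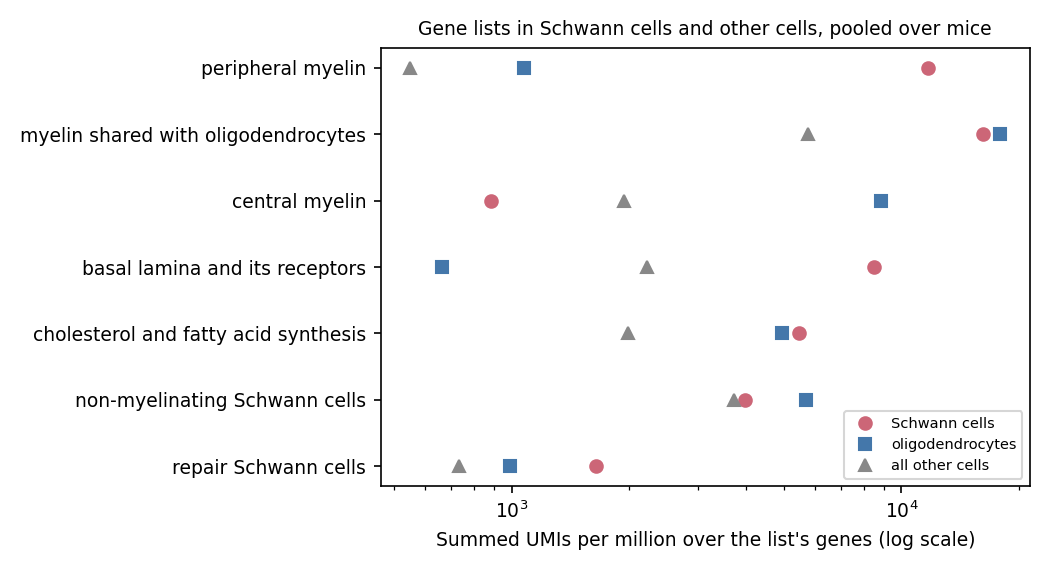
Summed level of 7 fixed gene lists, in CPM on a log axis, in Schwann cells (red circles), oligodendrocytes (blue squares) and all other cells (grey triangles), pooled over mice. The basal lamina list stands at 8522 in Schwann cells and 663 in oligodendrocytes, and the central myelin list at 887 and 8882.

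Basal lamina genes were the group in which every listed gene stood above both the other cells and oligodendrocytes. All 16 genes for the basal lamina and its receptors had a higher pooled level than in the other cells and than in oligodendrocytes, with a sum of 8522 CPM against 2231 and 663. Lama2, the laminin chain that Schwann cells lay down around themselves, was at 691 CPM against 131 in the other cells. Dag1, which encodes dystroglycan, the laminin receptor that periaxin reaches through Drp2, was at 829.04 CPM against 89.97. Utrn, the cytoplasmic partner of dystroglycan, was the most abundant of the list at 3268 CPM against 717. The integrin chain Itgb4, a laminin receptor of the myelinating cell, was at 186 CPM against 24.4.

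Genes of contact with the axon were mixed. Of 13 genes of the node and paranode, 8 stood above the other cells. Kcna1, a potassium channel, was the most abundant at 1049 CPM against 57.5, and Nfasc, which encodes neurofascin, the glial adhesion molecule of the paranode, was at 586 CPM against 345. Cntn1 and Cntnap2, whose proteins lie mainly on the axon, were at 39.5 and 82.2 CPM, below the 279 and 263 of the other cells.

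Lipid synthesis genes stood higher than in the other cells as a group. All 20 genes of cholesterol and fatty acid synthesis had a higher pooled level than the other cells, with a sum of 5451 CPM against 1993, and 16 were higher than in oligodendrocytes, where the sum was 4948 CPM. Without the deepest Schwann cell the sum was 4741 CPM, with 19 genes above the other cells and 11 above oligodendrocytes. Scd2, which puts double bonds into fatty acids, was at 1994 CPM against 797 in the other cells and 2591 in oligodendrocytes. Hmgcs1, an early enzyme of cholesterol synthesis, was at 633 CPM against 144, and at 523 CPM without the deepest cell.

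Regulators of the lineage differed in level. Zeb2, a repressor that lets myelination proceed, was the most abundant of the list, with 716 UMIs in 70.5% of the cells at 1178 CPM, against 647 CPM in the others and 1468 CPM in oligodendrocytes. Sox10, the transcription factor of the glial lineage, was in 51.7% of the cells (44.7 to 58.7) against 8.02% of the others and 27.6% of oligodendrocytes, which also express it. These shares, and those of Egr2 below, are at the unlike depths given above. Egr2, which drives myelin genes with Sox10, had 78 UMIs, in 25.1% of the cells (19.4 to 31.6) against 1.26% of the others. Pou3f1, which acts before Egr2 in development, had 105 UMIs and was in 29.0% of the cells. Foxd3, a factor of the neural crest, had 33 UMIs at 54.3 CPM, against 0.0379 CPM in the other cells.

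Receptors that control myelination were found in a minority of cells. Erbb3, the receptor for axonal neuregulin, was in 38.6% of the cells at 242 CPM, against 15.1 CPM in the others. Its partner Erbb2 was at 44.4 CPM against 4.49, and at 21.2 CPM without cKO 7 d replicate 2, which held 23 of its 27 UMIs. Adgrg6, the adhesion receptor needed to start peripheral myelination, was in 31.9% at 189 CPM against 15.6, and Lgi4, a secreted protein of the glia, was at 234 CPM against 20.7. Of the 15 genes of this list 9 stood above the other cells.

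Repair genes were scarce, with a single gene as the exception. Shh, Gdnf, Artn, Bdnf, Lif and Fgf5, which encode secreted factors, had 0 UMIs in 607933, so each was at most 4.93 CPM by a floor of 3 counts. Jun, the transcription factor that directs the repair state, was at 62.5 CPM against 313 in the other cells. Gfra1, the receptor subunit for GDNF, was at 1357 CPM and in 60.9% of the cells (53.9 to 67.6), against 47.9 CPM and 7.45% in the others. Of the 18 genes, 5 stood above the other cells, and 4 without the deepest cell.

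Stress and interferon genes were mostly below the other cells, which include immune cells, with 2 of 14 immediate early and stress genes and 0 of 12 interferon and antigen presentation genes above them. Against oligodendrocytes 8 and 9 of these genes were higher in Schwann cells, with a sum of 824 CPM against 1432 for the stress list and of 594 CPM against 178 for the interferon list. Fos, an immediate early gene, was at 97.1 CPM against 171, and B2m, a subunit of MHC class I, was at 293 CPM against 578. H2-Aa and Ifit1 had 0 UMIs in the Schwann cells.

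Other Wnt receptors were led by Fzd3 and Lrp6. Fzd3, a frizzled receptor of planar polarity and axon guidance, had 210 UMIs at 345 CPM, in 44.9% of the cells against 7.89% of the others. Lrp6, the co-receptor of the β-catenin pathway, was at 253 CPM against 112, but at 122 CPM without cKO 7 d replicate 2, which held 131 of its 154 UMIs. Fzd9 had 0 UMIs, and Fzd1, Fzd2, Fzd4, Fzd5, Fzd6 and Fzd7 had 1 to 7 each. In all, 6 of the 17 genes stood above the other cells, and 5 without the deepest cell.

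Markers of other cell types were found in some cells. No doublet caller was run, so doublets were neither called nor removed. At least 2 markers of a type were found in 31 Schwann cells for oligodendrocytes (14.98%), in 23 for fibroblasts, in 19 for satellite glia, in 16 for neurons, in 14 for astrocytes and in 4 for endothelial cells. Col1a2, a fibrillar collagen chain, had the most UMIs of the fibroblast markers, 367 in 56.5% of the cells, whereas the fibroblast genes Dcn and Lum had 11 and 2. Fabp7, a fatty acid binding protein, had the most UMIs of the satellite glia markers, and of its 294 a single cell of cKO 7 d replicate 2, the deepest of the cluster, held 273. Apoe, a lipid carrier of many glia that was not among the markers counted per cell, was at 3645 CPM against 4782 in the other cells. That same cell held 1668 of its 2216 UMIs, and without the cell the level was 955 CPM. Endothelial markers summed to 168 CPM against 3442 in the other cells, but to 2626 CPM in cKO uninjured replicate 2 and to 1595 CPM in the shallow cKO 1 d replicate 1. Neuron markers, at 408 CPM in all, summed to 1212 CPM in cKO uninjured replicate 2 and to 1575 CPM in WT 14 d replicate 2. Astrocyte markers, at 572 CPM in all, summed to 2005 CPM in WT 14 d replicate 2 and to 1649.03 CPM in cKO 1 d replicate 2. What part doublets and free RNA had in these counts was not tested. Of the 17937 distinct barcodes, some were in more than 1 library, and 432 cells shared theirs with a cell of another library. Among them were 2 Schwann cells, neither of which shared it with another Schwann cell.

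The Schwann cells spread along an axis from myelinating to non-myelinating markers. UMIs of 7 myelinating markers (Pmp22, Prx, Ncmap, Drp2, Cldn19, Egr2, Pmp2) were ahead in 169 cells, those of 6 non-myelinating markers (Scn7a, Ncam1, L1cam, Ngfr, Cadm2, Csmd1) in 33 cells (15.9%), and 5 cells were tied, 4 of them with no UMI of either. The non-myelinating share of marker UMIs was under 10% in 153 cells and over 90% in 23, with 14 cells from 10% to 40%, 4 from 40% to 60% and 9 from 60% to 90%. The classes are ranges of this score, not types, and the 4 cells near the middle could fall on either side. The median depth was 2550 UMIs with myelinating markers ahead and 2845 with the others ahead. The 6 non-myelinating markers belong to a list of 12 genes that was not particular to the cluster. Its summed level was 3976 CPM in Schwann cells, 3726 in the other cells and 5691 in oligodendrocytes. Of the 12 genes, 6 stood above the other cells and 5 above oligodendrocytes.

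**Figure D3:**
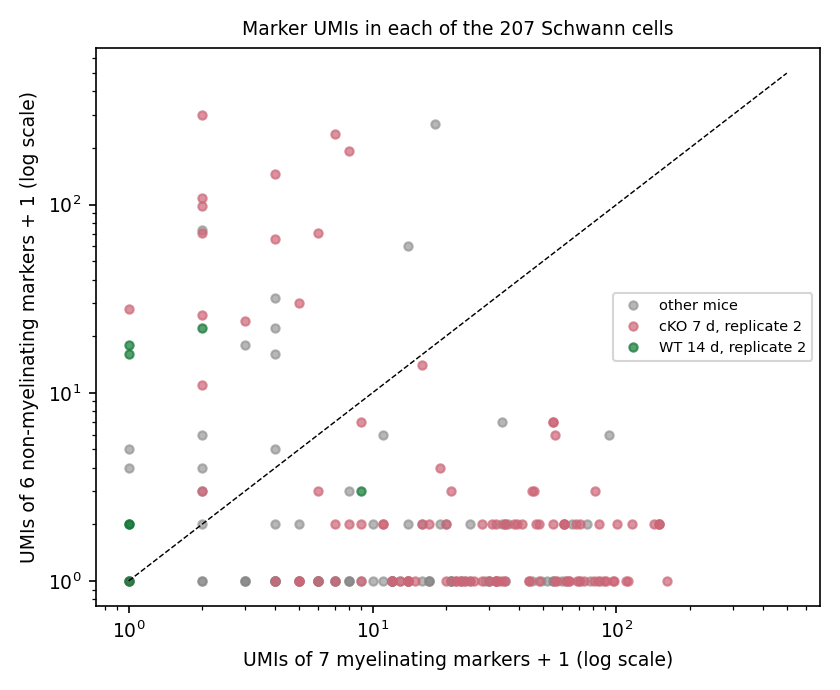
UMIs of the 7 myelinating markers (horizontal) and of the 6 non-myelinating markers (vertical) in each of the 207 Schwann cells, each plus 1, on log axes, with the dashed line where both are equal. Each point is 1 cell, red for cKO 7 d replicate 2, green for WT 14 d replicate 2 and grey for the other mice; 169 cells lie below the line and 33 above it.

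Cells with non-myelinating markers ahead were found in 9 of the 12 mice with Schwann cells. There were 2 among the 14 cells of the uninjured mice, both in cKO replicate 2 and with few marker UMIs (4 against 3, and 3 against 0). These counts depend on which markers enter the score, which was changed after results were seen. The change raised the number of cells with non-myelinating markers ahead, and the uninjured cells among them appeared only after it. There were 15 of 103 in cKO 7 d replicate 2, 5 of 7 in WT 14 d replicate 2, 3 of 7 and 3 of 20 in the cKO mice at 14 d and 2 of 13 in WT 7 d replicate 1. The remaining mice had 0 or 1. The 5 cells of WT 14 d replicate 2 had no UMI of Scn7a, a sodium channel of Remak cells, and are placed by the other markers, mainly Csmd1, which had 36 UMIs in 4 cells of that mouse. Without cKO 7 d replicate 2 the share was 18 of 104 cells (17.3%), and without WT 14 d replicate 2 it was 14%. No test was made, since the 14 uninjured cells come from 2 mice.

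Levels of genes outside the score also differed between the cells sorted by it. The values that follow are descriptions, of genes picked after their values in the classes were seen, and Cdh19, Ugt8a, Pllp, Mbp and Apoe are on the fixed lists, so they are no independent check of the axis. Abca8a, a lipid transporter, was at 1918 CPM in cells with non-myelinating markers ahead and 20.9 CPM in the others. Chl1, an adhesion molecule close to L1, was at 1187 against 46.1 CPM, and Matn2, a matrix protein, at 755 against 64.9 CPM. Cdh19, a cadherin of the Schwann lineage, was at 2617 against 322 CPM. In the cells with myelinating markers ahead, Ogn was at 2276 CPM against 110.03, Ugt8a, which makes the lipid galactosylceramide, at 1000.77 against 7.86, and Pllp, the myelin protein plasmolipin, at 555 against 47.2. Mbp was high on both sides, at 8324 CPM in the myelinating range and 3269.57 in the other. Apoe was at 16552 CPM in the non-myelinating range and at 4700.02 CPM without the deepest cell, against 219.8 CPM.

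How often Schwann cells were found around a lesion was compared between injured and uninjured mice. They were rare in most mice and common in a single injured mouse. Uninjured mice had 0 of 980 and 6 of 1384 cells in WT (0 and 0.434%) and 0 of 208 and 8 of 1238 in cKO (0 and 0.646%), and by a floor of 3 counts the 2 counts of 0 allow shares of up to 0.306% and 1.44% (exact binomial upper limits 0.376% and 1.76%). In the 11 injured mice the share ranged from 0 (cKO 7 d replicate 1, 0 of 1786 cells, which allows up to 0.168% by the same floor, with an exact upper limit of 0.206%) through a median of 0.536% to 6.77% (cKO 7 d replicate 2, 103 of 1521 cells, exact binomial 95% interval 5.56 to 8.15). The groups overlap, and the injured mice held both a mouse without Schwann cells and the mouse with the most.

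The mean share was 1.27% ± 1.90 (SD, n = 11) in injured mice and 0.270% ± 0.324 (SD, n = 4) in uninjured mice, a difference of 0.955 percentage points averaged over genotypes (p = 0.311, exact two-sided permutation test within genotype, smallest p possible 0.00170). Without cKO 7 d replicate 2 the difference was 0.453 points (p = 0.179, exact permutation test) with an injured mean of 0.723%. Shares count cells that survived dissociation.

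The 2 mice of a condition often differed in their share. At 1 d, WT had 0.293% in its single mouse and cKO 0.491% and 0.976%. At 7 d, WT had 1.08% and 0.238% and cKO 0 and 6.77%. At 14 d, WT had 1.38% and 0.536% and cKO 1.76% and 0.468%. Neither genotype was the higher in both replicates at 7 d or at 14 d.

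**Figure D4:**
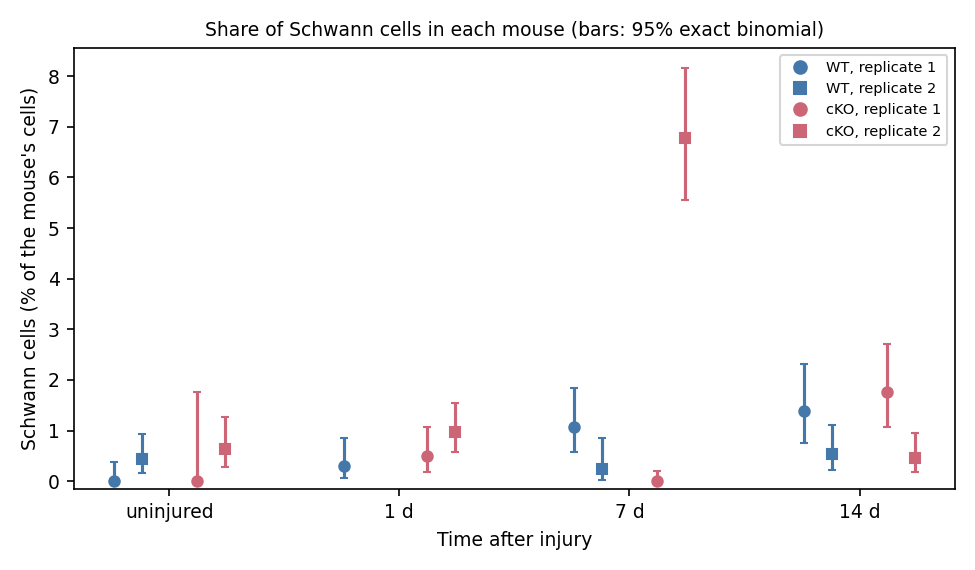
Schwann cells as a percent of all cells of each mouse (vertical axis, linear) against time after injury. Each point is 1 of 15 mice with its 95% exact binomial interval, blue for WT and red for cKO, circles for replicate 1 and squares for replicate 2; cKO 7 d replicate 2 stands at 6.77% and the others at or below 1.76%.

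Whether the share differed by genotype was asked in the same way. It ranged from 0 through a median of 0.434% to 1.38% in the 7 WT mice and from 0 through a median of 0.568% to 6.77% in the 8 cKO mice. The ranges overlap, and apart from a single cKO mouse the values were alike. The mean was 0.566% ± 0.492 (SD, n = 7) in WT and 1.39% ± 2.25 (SD, n = 8) in cKO, a difference of 0.857 points averaged over time points (p = 0.389, exact two-sided permutation test within time points, smallest p possible 0.00154). Without cKO 7 d replicate 2 the cKO mean was 0.620% and the difference 0.0110 points (p = 0.981, exact permutation test), and without cKO 7 d replicate 1, the mouse with 0, it was 1.70 points (p = 0.0679, exact permutation test). Each of these leaves an arm with 1 mouse.

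The response of Schwann cell genes to injury was tested in the 10 mice with at least 5 Schwann cells, 2 uninjured and 8 injured, since no uninjured mouse had 10. No gene passed the test, and the values of the main myelin genes overlapped. Pmp22 was at 15180 CPM in the WT and 2626 in the cKO uninjured mouse, and ranged in the injured mice from 215 through a median of 6355 to 10633 CPM. The uninjured mice lay above and within the injured range. Its log2 fold change was −0.53 (standard error 0.86, adjusted p = 0.897, edgeR, adjusted by Benjamini-Hochberg).

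Of 358 genes tested by edgeR, 0 were called at an adjusted p under 0.05 (0.00%), while 23 had an unadjusted p under 0.05; the count by DESeq2 was 0. Among the 7 of 15 peripheral myelin genes that passed the filter on low counts, 2 had a higher and 5 a lower fitted level after injury, with a median log2 fold change of −0.29, against 0.05 over all genes tested. Of the 10 shared myelin genes tested, 1 was higher and 9 lower (median −0.43). Of 7 basal lamina genes, 3 were higher and 4 lower (median −0.06). The 2 genes of lipid synthesis and the 6 of the node that were tested had medians of −0.31 and −0.17. Of the repair list 1 gene was tested, Gfra1, which was at 242 and 539 CPM in the uninjured mice and ranged from 573 through 1419 to 1788 CPM in the injured mice, which lay above both (log2 fold change 1.35, standard error 0.65, adjusted p = 0.619 from edgeR).

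Genes of non-myelinating cells had higher values in injured mice without passing the test. Scn7a had 0 UMIs in both uninjured mice, and in the injured mice ranged from 0 through a median of 296 to 4467 CPM, with a UMI in 5 of 8. Csmd1, a membrane protein of the complement control family, was at 0 and 269 CPM in the uninjured mice and from 0 through a median of 1031 to 4762 CPM in the injured mice. Ncam1, the neural cell adhesion molecule, had 0 UMIs in both uninjured mice and ranged from 0 through a median of 369 to 1011 CPM after injury, with a UMI in 7 of 8. The lower ends of both groups overlap for all 3 genes.

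Pooled over the injured mice, Ncam1 was at 4.11 and Scn7a at 6.19 times a floor for the uninjured mice (adjusted p = 0.495 and 0.619 from edgeR). The floor is 3 counts in their 27235 UMIs. It treats UMIs as independent, but these come from 14 cells, and Scn7a was found in 28 of all 207 Schwann cells. The folds are therefore no lower limits for a change with injury. The pooled injured level leans on cKO 7 d replicate 2, with 419397 UMIs. The 5 genes of non-myelinating cells that were tested all had higher fitted levels, against 188 of all 358 genes tested. Their median was 3.29, or 2.04 with Ncam1 and Scn7a set at these folds, and 2 had an unadjusted p under 0.05. A gene could pass the filter through the injured mice alone, so this count supports nothing by itself. Of the 3 satellite glia markers tested, 2 were higher, also against 188 of all 358 genes. Their median was 2.97, the value of Apoe, or 2.21 with Fabp7 set in the same way. Fabp7 too had 0 UMIs in the uninjured mice. Apoe was at 80.7 and 404 CPM uninjured and from 0 through 1360.47 to 5845 CPM injured (adjusted p = 0.619 from edgeR). The top value is from WT 7 d replicate 1, where 1 cell held 21 UMIs of Apoe. The deepest cell, rich in Apoe and Fabp7, held 222 UMIs of Csmd1 and 76 of Ncam1, and 36 of Csmd1 are from WT 14 d replicate 2. The genes with the smallest p and a higher level were Ncam1, Add3 and Atxn1. Add3, an adducin of the membrane skeleton, had 0 UMIs in both uninjured mice and ranged from 0 through 216 to 974 CPM in the injured mice (pooled, 2.25 times the floor, adjusted p = 0.495 from edgeR). Atxn1, a transcriptional regulator, was at 242 and 135 CPM in the uninjured mice and ranged from 574 through 886 to 1306 CPM in the injured mice, which lay above both (log2 fold change 2.00, standard error 0.70, adjusted p = 0.574 from edgeR).

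Those with the smallest p and a lower level were Tmsb10, Bsg and Itm2a. Itm2a, a membrane protein, was at 807 and 741 CPM in the uninjured mice and ranged from 0 through 156 to 341 CPM in the injured mice, which lay below both (log2 fold change −2.37, standard error 0.71, adjusted p = 0.495 from edgeR). Tmsb10, an actin-binding thymosin, was at 727 and 1616 CPM uninjured and from 0 through 359 to 1063 CPM injured (adjusted p = 0.488 from edgeR). Bsg, which encodes basigin, a membrane protein abundant in endothelial cells, was at 161 and 2761 CPM uninjured and from 71.6 through 262 to 1063 CPM injured, with overlap (adjusted p = 0.488 from edgeR). The higher value is from cKO uninjured replicate 2, where endothelial markers summed to 2626 CPM against 80.7 in the other uninjured mouse; their part in the result was not tested.

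Both uninjured mice are replicate 2 and carry 6 and 8 Schwann cells, and cell names give other conditions for both. Without WT uninjured replicate 2, which leaves 1 uninjured mouse that is assumed to vary like the others, 8 genes were called, all lower, and without WT 14 d replicate 2 it was 1; the other 8 omissions gave 0 calls. Gm42418, a gene that overlaps ribosomal RNA, took 106338 and 155892 CPM in the uninjured mice and from 4785 through 27488 to 101250 CPM in the injured mice, and its part in the fitted levels was not tested.

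The effect of genotype on Schwann cell genes was tested in the same 10 mice, 4 WT and 6 cKO. No gene passed the test. Pmp22 was at 15180, 8524, 10181 and 215 CPM in WT mice and ranged from 2626 through a median of 5306 to 10633 CPM in cKO mice, so that WT mice lay above, within and below the cKO range. Its log2 fold change was −0.47 (standard error 0.71, adjusted p = 0.989 from edgeR).

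Of 358 genes tested by edgeR, 0 were called (0.00%), while 7 had an unadjusted p under 0.05; the count by DESeq2 was 0. The 7 peripheral myelin genes tested had a median log2 fold change of −0.47 (2 higher, 5 lower in cKO), against −0.05 over all genes tested, and the 10 shared myelin genes had a median of −0.14 (2 higher, 8 lower). Of the 5 genes of non-myelinating cells tested, 4 were higher and 1 lower in cKO (median 0.73). Among them Scn7a had a UMI in 1 of 4 WT mice, at 382 CPM, and in 4 of 6 cKO mice, which ranged from 0 through 343 to 4467 CPM (log2 fold change 2.74, standard error 1.26, adjusted p = 0.989 from edgeR), with overlap. Slc35f1, a solute carrier, had the smallest p among genes higher in cKO: the WT mice had 0, 244, 47.8 and 0 CPM and the cKO mice from 120 through 521 to 1601 CPM, a log2 fold change of 3.77 (standard error 1.07, adjusted p = 0.989 from edgeR). The WT mice lay mostly below the cKO mice, with overlap. Adam10, a protease that sheds membrane proteins, ranged from 71.6 to 487 CPM in WT and from 379 through 600.3 to 1595 CPM in cKO, with overlap (adjusted p = 0.989 from edgeR). Fmn2, a formin that nucleates actin, ranged from 80.7 to 286 CPM in WT and from 269.8 through 661 to 1063 CPM in cKO, with overlap (adjusted p = 0.989 from edgeR).

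The smallest p among genes lower in cKO were those of Rps2, Add3 and Rpl36. Rps2, a protein of the small ribosomal subunit, was at 646, 1705, 525.76 and 573 CPM in WT mice and from 135 through 369 to 532 CPM in cKO mice. WT mice were higher with a small overlap (log2 fold change −1.35, standard error 0.45, adjusted p = 0.989 from edgeR). Add3 ranged from 0 to 974 CPM in WT and from 0 through 159 to 255 CPM in cKO (adjusted p = 0.989 from edgeR). Rpl36, of the large subunit, ranged from 644 to 974 CPM in WT and from 424 through 478 to 606 CPM in cKO, with every WT mouse above every cKO mouse (adjusted p = 0.989 from edgeR). Without WT uninjured replicate 2 and without cKO uninjured replicate 2, each of which leaves 1 uninjured mouse that is assumed to vary like the others, 6 genes each were called, all lower in cKO; the other 8 omissions gave 0 calls.

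Whether injury moved Schwann cells and oligodendrocytes differently was tested in the same 10 mice, with both cell types of a mouse compared. Calls were made for 2 genes, and both depended on single mice. Of 5619 genes tested by edgeR, 2 were called (0.0356%), while 408 had an unadjusted p under 0.05; the count by DESeq2 was 7, all higher. The fitted differences were not centred on 0, with 3748 genes higher and 1871 lower and a median of 0.59 on the log2 scale, and the reason was not tested. Neither gene is on a fixed list, and the lists held 0 calls. All 4 neuron markers tested had a fitted difference above 0 (median 1.47), as did all 5 astrocyte markers tested (median 2.86). The 3 endothelial markers tested were all lower (median −2.02). What part RNA of other cell types had in the calls was not tested.

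Bc1 is a small RNA of neurons, transcribed by RNA polymerase III. In oligodendrocytes it was at 2042 and 1562 CPM in the uninjured mice and from 0 to 1274 CPM in the injured ones, of which the 6 at 7 d and 14 d were at 253 CPM or less. Schwann cells had 565 and 135 CPM uninjured (7 and 2 UMIs) and from 0 to 1649 CPM injured, with 0 UMIs in cKO 1 d replicate 1 and WT 7 d replicate 1, where oligodendrocytes had 0 as well. Schwann cells were thus below oligodendrocytes in both uninjured mice, and at or above them in the 8 injured mice. The response in Schwann cells minus that in oligodendrocytes was 4.29 on the log2 scale (adjusted p = 0.0256 from edgeR). In the fit of Schwann cells alone its log2 fold change with injury was 0.14 (adjusted p = 0.997 from edgeR). The call of Bc1 was lost in 7 of the 10 omissions of a single mouse.

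Fam13c, a gene of little known function, had 6 UMIs in the Schwann cells of cKO uninjured replicate 2 (404 CPM), 1 in cKO 14 d replicate 1 and 0 in the other 8 mice. In oligodendrocytes it was at 102 and 88.1 CPM uninjured and from 101 to 417 CPM injured. The difference was −6.69 (adjusted p = 0.0300 from edgeR) and rests on the 6 UMIs, since without that mouse it was 1.57 (adjusted p = 0.993). Leaving out single mice moved the count of calls from 2 to 0 without cKO uninjured replicate 2, cKO 1 d replicate 2, cKO 7 d replicate 2, WT 14 d replicate 1 or cKO 14 d replicate 2, to 1 (Fam13c) without WT uninjured replicate 2 or cKO 14 d replicate 1, to 5 without cKO 1 d replicate 1 and to 9 without WT 14 d replicate 2.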

How the data were processed

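The authors made 10x Genomics Chromium 3′ libraries of 16 mice, aligned them with Cell Ranger to mm10, kept cells with over 200 genes and under 25% mitochondrial UMIs, and clustered them in Seurat (R 4.1.2). They deposited raw UMI counts of 55487 gene symbols in 18203 cells, and the deposited cell table gives the percent of mitochondrial UMIs and the cluster of each cell. Groups followed the sample titles. Gene positions come from a GENCODE annotation of GRCm38 and may differ from the one the authors counted on. The members and the gene lists were chosen with earlier results of these data known. Named genes are the markers, the members of the fixed lists, genes among the 20 highest over the other cells and among the 10 largest differences from oligodendrocytes each way, up to 10 called genes each way, and, with no calls, the 3 of smallest p each way. After the results were seen, 2 genes were taken out of the lists, and 1 of them out of the planned marker score, because they may not be printed. This changed the marker classes and the calls of the alternative that uses them. Counts of genes tested, called or compared over the whole table still hold these 2 genes. Also after the results were seen, pooled levels were computed without the deepest cell for all 23 lists and their genes, and values without it are given for some of them. Genes named for the marker score classes were chosen after their values were seen.

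Counts were summed per mouse and tested with edgeR 4.0.16 (TMM, filterByExpr, quasi-likelihood, Benjamini-Hochberg at 0.05) in R 4.3.3, with genotype and injury as terms, or with mouse, cell type and cell type by injury. DESeq2 1.42.0 was an alternative. The minimum of 10 Schwann cells per mouse left no uninjured mouse, so the minimum of 5 was used as planned. Shares were compared by exact permutation tests over the 15 mice with at least 50 cells, and intervals are Clopper-Pearson at 95%. Depth was 536263 to 9008729 UMIs per mouse. Python 3.11.15, numpy 2.4.6, pandas 2.3.3, scipy 1.17.1 and matplotlib 3.10.9 were used. The batch in the deposited cell table equals the replicate number in 16 of 16 mice, so numbers pair mice by batch; deviations of same-numbered mice correlated at −0.07, −0.08 and 0.19 between 3 pairs of conditions. Alternatives covered filters, depth, the replicate block, time points as terms, conditions from cell names, the denominator, the first clustering and each mouse left out in turn. Free RNA was not removed.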

Additional observations from a re-analysis of the deposited data

Results flagged for a closer look

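In groups of 4 to 10 mice, the highest or lowest value was compared with its nearest neighbour, and 10 of 41 groups tested had a mouse far from the others, where chance gives about 1 in 20 for a single group. The groups overlap, so that 3 of these mice and genes are counted both among injured and among cKO mice, and the count cannot be set against that rate. The Schwann cell share of cKO 7 d replicate 2 was 6.77% among the cKO mice, against 1.76% for the next. In cKO 14 d replicate 2, Cdh19 was at 2570 CPM, Scn7a at 4467 CPM and Cadm2 at 4340 CPM, each far above the rest both among the injured and among the cKO mice. In that mouse 2 of its 7 cells held all 106 UMIs of Scn7a and 56 of the 61 of Cdh19. Among WT mice, Cdh19 stood at 1002 CPM in WT 14 d replicate 2 and Scn7a at 382 CPM in WT 14 d replicate 1, from 8 UMIs in 1 cell, where the other 3 had 0. Ncmap was at 2658 CPM in cKO 1 d replicate 1, from 5 UMIs.

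The response to injury differed between Schwann cells and oligodendrocytes, by edgeR's test of the difference, for Bc1 (4.29 on the log2 scale) and Fam13c (−6.69). The call of Bc1 was lost in 7 of 10 omissions of a single mouse, and Fam13c was at 1.57 without cKO uninjured replicate 2.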

How the results depend on the processing

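The difference in share between injured and uninjured mice stayed positive with p above 0.05 in every alternative run, from 0.453 to 1.13 points with each mouse left out, and that between cKO and WT from 0.0110 to 1.70 points. With the replicate block the p-values were 0.3125 and 0.422 (exact permutation test), and the block gave 0, 0 and 2 calls for injury, genotype and the contrast with oligodendrocytes, so the pairing changed no call.

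Calls for injury (0) were 3 with no filter on low counts and 0 to 8 with each mouse left out; calls for genotype (0) were 0 to 6. For the contrast with oligodendrocytes (2), DESeq2 called 7 (all higher), no filter gave 0, cells with at least 1000 UMIs gave 42 (41 higher and 1 lower, 7 mice), conditions from the cell names gave 0, the cells with more myelinating marker UMIs gave 0 (chosen after seeing the data, and dependent on the markers in the score, which were changed after results were seen), and leaving out single mice gave 0 to 9. The cause was not tested. Bc1 kept its sign in all of these, from 3.09 to 5.34, and ran from 3.88 to 5.21 with single mice left out, but its call was lost in 7 of 10 omissions, with no filter (adjusted p = 0.591 from edgeR), with the conditions from the cell names (0.856) and in the cells with more myelinating marker UMIs (0.0692). Fam13c ran from −8.62 to 1.57 with single mice left out. It turned to 4.23 with the conditions from the cell names and to 1.57 without cKO uninjured replicate 2, the mouse with 6 of its 7 UMIs. At least 15 cells per mouse, and for injury at least 10, left too few mice and could not be fitted.

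Among the 10 mice with at least 5 Schwann cells, cKO 1 d replicate 1 had the lowest depth, 1881 UMIs in its Schwann cells. There the floor of 3 counts for a gene with 0 UMIs is 1595 CPM.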
